A study of Mus musculus with 14 samples.

Results

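A small set of smooth muscle nuclei in the mouse colon carried RNA of Grin3a, Hs3st4 or both, as the rule that chose the set required. A nucleus was a member of this set when it held at least 2 unique molecular identifiers (UMIs, counted RNA molecules) of Grin3a, Hs3st4 and Trhde together, at least 1 of them from Grin3a or Hs3st4. It also had to hold at least 2 UMIs of the contractile genes Myh11, Mylk, Acta2 and Actg2, no UMI of Kit or Pdgfra, and fewer than 4 UMIs of the neuronal genes Elavl4, Snap25, Syt1 and Stmn2. The rule found 73 members among 1666 smooth muscle nuclei, out of 4533 nuclei with at least 300 genes and at most 5% mitochondrial UMIs and 5640 barcodes in all. Because the members were chosen by their RNA, their difference from other smooth muscle nuclei is given as a description and is not tested.

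The series measured the gut muscle coat (muscularis) of C57BL/6 mice of 2 genotypes. Those labelled "Carmn iKO", after a long non-coding RNA of smooth muscle, are called KO here, and controls labelled "WT mTmG" are called WT. The sources used here give neither the means, cell type and extent of the Carmn deletion nor the age or treatment of the animals. Nuclei of the colon came from 1 library per genotype, with RNA and open chromatin read from the same nuclei, and bulk RNA from 3 libraries per genotype in colon and likewise in jejunum. Nothing in those sources says whether the bulk libraries of a group are separate animals, so their p-values measure the spread between libraries, which may be technical.

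Smooth muscle of the gut wall contracts through calcium-activated myosin, and its excitability is set by ion channels and by its coupling to interstitial cells of Cajal, the Kit-positive pacemaker cells. Grin3a encodes an NMDA-type glutamate receptor subunit, Hs3st4 a sulfotransferase that modifies heparan sulfate chains, and Trhde an ectoenzyme that degrades thyrotropin-releasing hormone. Dpp10 encodes an auxiliary subunit of Kv4 potassium channels, and Bmpr1b a type I receptor for bone morphogenetic proteins. Dpp10 and Bmpr1b belong to the name given to these nuclei but were not used by the rule. They were named with earlier results of these data known, so their levels here are no independent support for the set.

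The WT library gave 60 members, 5.38% of its 1115 smooth muscle nuclei (95% Clopper-Pearson interval 4.13 to 6.87%), and the KO library 13, 2.36% of 551 (1.26 to 4.0%). All intervals on nuclei cover counting error only, and with 1 library per genotype no difference between the libraries was tested. KO members were deeper, with a median of 4918 UMIs against 2392 in WT members, and the deepest nucleus held 16.9% of all KO member UMIs and 7.93% of WT member UMIs. When each nucleus was thinned to 1000 UMIs before the rule was applied, 32 of 852 WT nuclei (3.76%) and 3 of 423 KO nuclei (0.709%) remained members. The libraries shared 11 barcodes, none of them a member. In bulk jejunum Carmn RNA went against the KO label, at 996, 817 and 909 counts per 1000000 (CPM) in the libraries labelled KO and 240, 206 and 326 CPM in WT (edgeR adjusted p = 0.0646). In bulk colon it was 461, 304 and 718 CPM against 252, 171 and 351 CPM, with groups that overlap (edgeR adjusted p = 0.234). In smooth muscle nuclei it followed the label, at 680.1 CPM in KO and 1332 CPM in WT members, and at 451 and 1452 CPM in the other smooth muscle nuclei.

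In WT, Hs3st4 did most of the selecting. All 60 WT members held Hs3st4, 16 held Grin3a, 13 held Trhde and 6 held all 3 genes, whereas 37 were selected on Hs3st4 alone. Among the 13 KO members, 10 held Hs3st4, 5 held Grin3a and 1 held Trhde. The median marker count per member was 5 UMIs in WT, with a highest value of 27. In KO it was 2 UMIs, with a highest value of 24: 8 of 13 members sat exactly at the threshold, none held 3 or 4, and 5 held at least 5. Just outside the threshold, with 1 marker UMI, lay 39 WT and 14 KO smooth muscle nuclei.

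Dpp10, no part of the rule, was highest in the nuclei with most marker UMIs, though not in step with every class. WT smooth muscle nuclei without any marker UMI had 796 CPM of Dpp10 (95% Poisson interval 761 to 831), those with 1 UMI had 1480.1 CPM, and members with 2 UMIs had 3511 CPM. WT members with 3 or 4 marker UMIs had 2859.7 CPM and those with at least 5 had 6717 CPM (6281 to 7174). In KO the values were 48.4, 0 and 417 CPM at 0, 1 and 2 marker UMIs and 2242 CPM (1769 to 2802) at 5 or more. That top KO class was 5 nuclei with 77 Dpp10 UMIs, seen in 60% of them, and 1 nucleus held most of these UMIs. The 4 WT nuclei with 2 or more UMIs of Trhde alone, which are not members, had 3988 CPM (3199 to 4914). Ano1, a calcium-activated chloride channel, went from 146 CPM without markers to 1116 CPM in the top class in WT, and in KO from 165 to 1572 CPM. Mdga2, a membrane glycoprotein that binds neuroligins, went from 148 to 3013 CPM in WT and from 103 to 1776 CPM in KO. Myh11, the smooth muscle myosin heavy chain, which the rule did use, was 9689 and 7119 CPM in the WT classes of 0 and of 5 or more. In KO it was 6098 CPM at 0, 1718 CPM at 1, 10002 CPM at 2 and 7802 CPM at 5 or more marker UMIs.

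**Figure D1:**
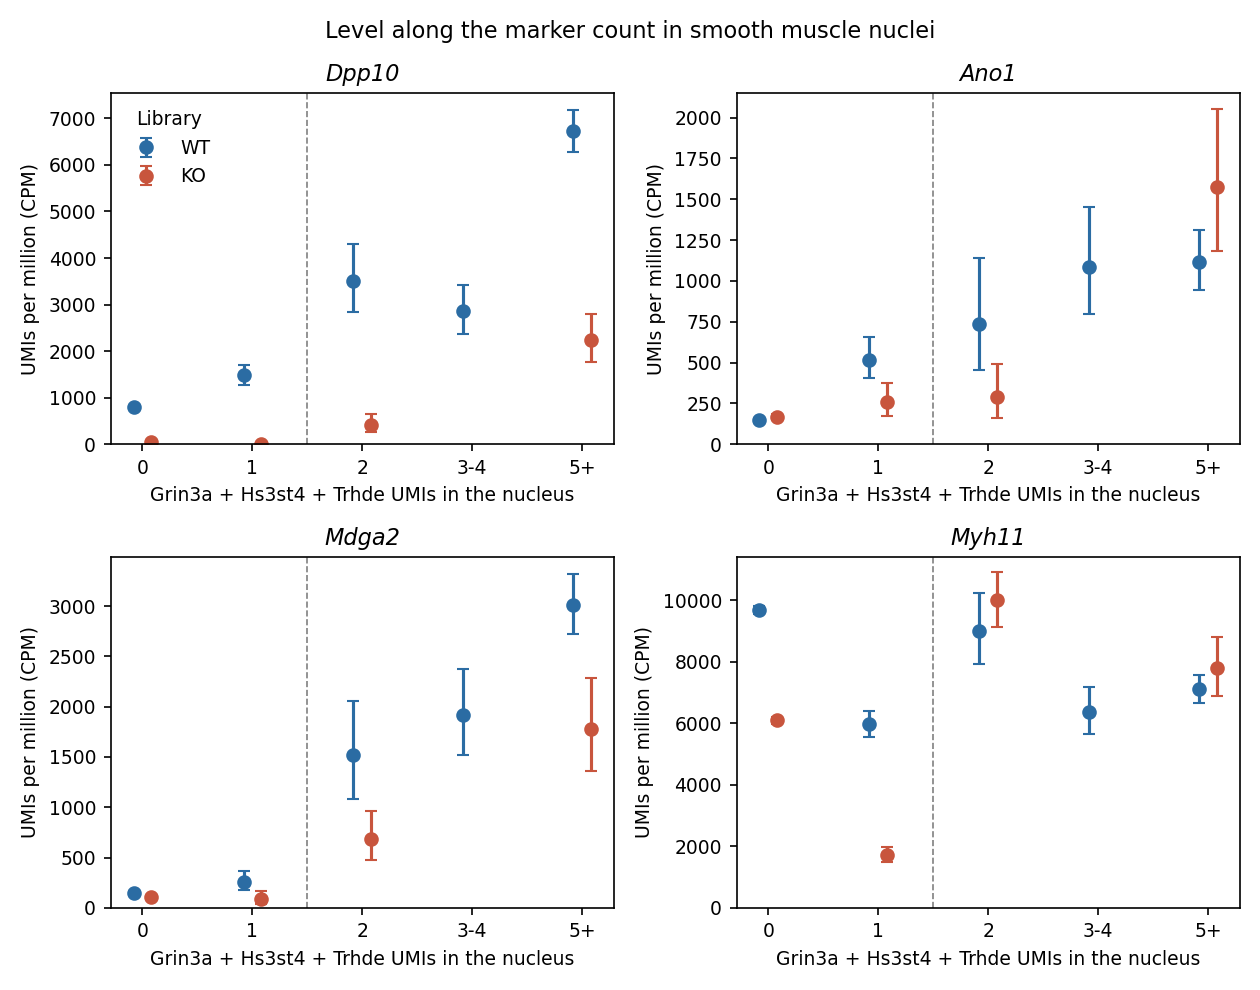
Level in CPM of UMIs of Dpp10, Ano1, Mdga2 and Myh11 in smooth muscle nuclei, by the summed Grin3a, Hs3st4 and Trhde UMIs of the nucleus; bars are 95% Poisson intervals, and nuclei right of the dashed line are members. Dpp10 reached 6717 CPM in WT and 2242 CPM in KO in the class of 5 or more, while no KO nucleus held 3 or 4 marker UMIs. In KO that class was 5 nuclei, and 1 of them held most of its Dpp10 UMIs.

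The rule required contractile RNA, so the levels of Myh11, Mylk, Acta2 and Actg2 and any sum that holds them are set in part by the choice of members. Contractile genes that the rule did not use were present as well: Synpo2, an actin-binding protein, was 6449 CPM in WT and 4287 CPM in KO members, and the tropomyosin Tpm1 1641 and 2720.4 CPM. In the other smooth muscle nuclei Synpo2 was 5019.6 and 3367 CPM and Tpm1 3459.5 and 2075 CPM. Of the 15 contractile genes compared, which leave out the rule genes, 1 was higher and 3 were lower in members of both libraries. Their median ratio of members to others, with 1 UMI added, was 0.671 in WT and 1.21 in KO. All 20 contractile genes summed to 28106 CPM in WT members and 38074 CPM in other WT smooth muscle nuclei, and to 34612 against 28301 CPM in KO. Every member held Myh11 RNA, with a lowest, median and highest value of 730.5, 7001 and 26620.4 CPM in WT and 2033, 9053 and 19379 CPM in KO. Actg2, the gamma actin of gut muscle, was lower in WT members than in other smooth muscle nuclei (974 against 3106 CPM) but not in KO members (2502 against 2814 CPM). Of the 10 vascular mural markers, Notch3, Higd1b and Ndufa4l2 were at 0 in members of both libraries. Of the 3 with enough UMIs to be compared, none passed 2-fold in both libraries. Cspg4 was somewhat higher in members (ratios of 1.33 in WT and 1.77 in KO with 1 UMI added). The list summed to 577 CPM in WT members against 650.1 CPM in the others, and to 899 against 1028 CPM in KO.

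Markers of interstitial cells of Cajal were split. Ano1 was detected in 81.7% of WT and 84.6% of KO members, against 17.3% and 21.2% of other smooth muscle nuclei (median depths 1827 and 2556 UMIs). KO members were deeper, and with every nucleus thinned to 1000 UMIs Ano1 was found in 2 of 13 KO members, 15.4% (1.92 to 45.4%), against 10.2% of the others, a difference not detectable at this depth. In WT the thinned shares were 58.2% (44.1 to 71.3%) and 12.7%. Macrophage-marker nuclei, a type that should lack Ano1, held it in 12.5% of 24 nuclei in WT (2.66 to 32.4%) and 6.25% of 96 in KO (2.33 to 13.1%), at median depths of 1134 and 916 UMIs. The unthinned share of other smooth muscle nuclei lay within that interval in WT and above it in KO. Epithelial-marker nuclei held Ano1 in 29.2% of cases in WT and 29.0% in KO, above those other smooth muscle nuclei. Prkcq, which the rule did not use, was at 0 in all 73 members, as was Kit by the rule. In nuclei with at least 2 Kit UMIs (155 in WT, 91 in KO; a group added after the data were seen), Prkcq stood at 150 and 363 CPM and Ano1 at 937 and 1307 CPM. The Ano1 level of members was thus close to that of Kit nuclei in WT, at 1059 CPM, but below it in KO, at 826 CPM. Thinned to 1000 UMIs, Kit nuclei held Ano1 in 63.8% (55 to 72.1%) in WT and 69% (56.9 to 79.5%) in KO. The contractile sum of Kit nuclei was far lower than that of members, at 12041 and 8555 CPM. Etv1, another gene of these pacemaker cells, was at 69.6 CPM in WT members, 80.4 CPM in other WT smooth muscle nuclei and 317 CPM in WT Kit nuclei. Of the 7 pacemaker genes Ano1 alone had enough UMIs to be compared.

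Some members held RNA of genes listed for other cell types, whose origin was not tested. At least 5 UMIs of another type's list were found in 11 of 60 WT members (18.3%) and 209 of 1055 other WT smooth muscle nuclei (19.8%), and in 7 of 13 KO members (53.8%) against 179 of 538 others (33.3%). Fibroblast-like genes accounted for 6 of those 7 KO members. Glial genes (8 listed) summed to 771 CPM in WT members and 835 CPM in other WT smooth muscle nuclei, and to 170.0 and 1009 CPM in KO, with Foxd3 and Gfap at 0 in all members. Neuronal genes (13 listed) summed to 54.7 CPM in WT and 60.7 CPM in KO members, with Ret, Chat and Calb2 at 0. The doublet caller marked no nucleus, so it could not serve as a filter. Results below were also computed without those nuclei.

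**Figure D2:**
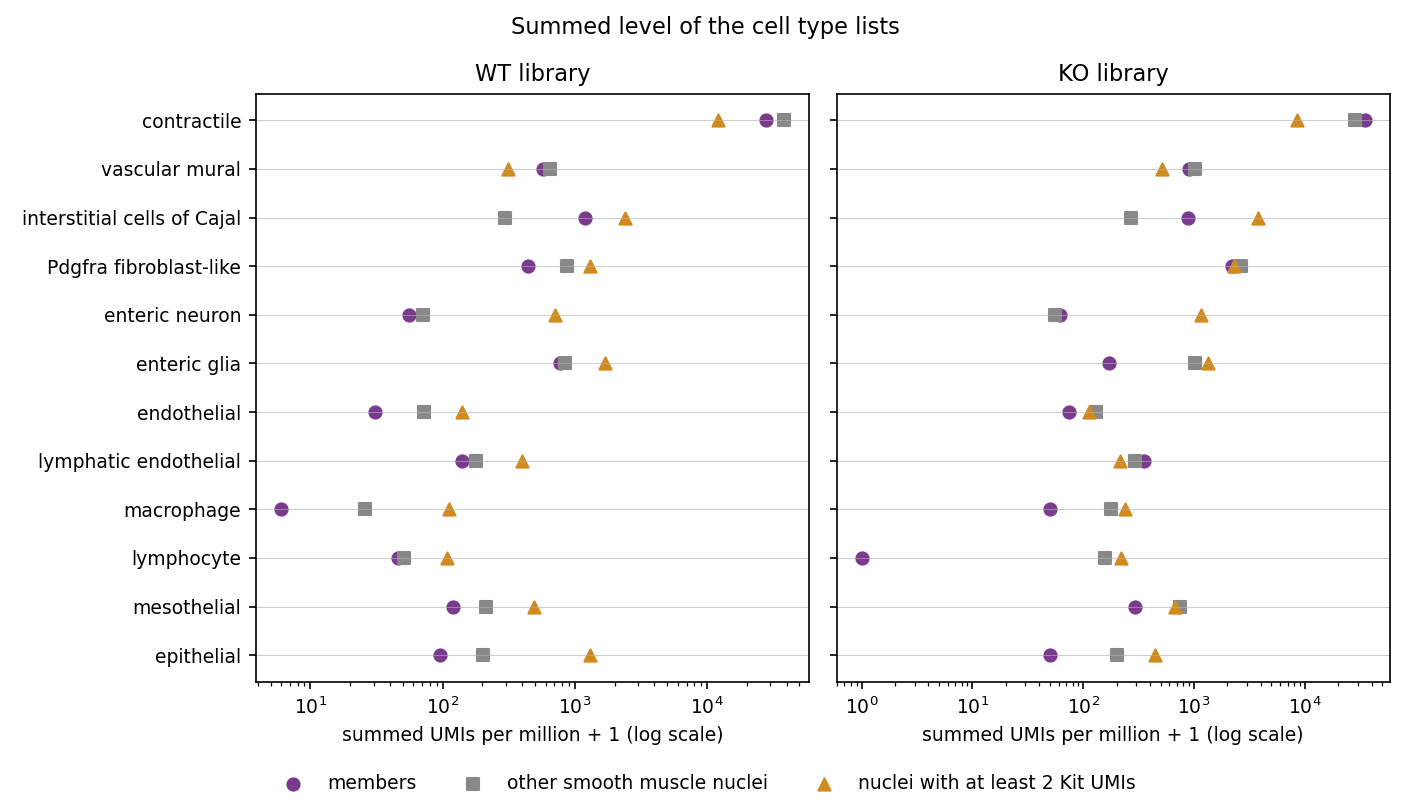
Summed level of each cell type list (CPM + 1, log scale) in members, in other smooth muscle nuclei and in nuclei with at least 2 Kit UMIs, by library. Members lie beside other smooth muscle nuclei for contractile genes, which the rule used in part (28106 and 38074 CPM in WT). For the genes of interstitial cells of Cajal they lie between those and Kit nuclei (1183 CPM in WT members). That list holds Kit, absent by rule from members and others and used to define Kit nuclei, so this order is set in part by the choice of groups. Ano1 by itself did not lie between them in WT.

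Against other smooth muscle nuclei, 42 of 2069 genes compared (2.03%) were at least 2-fold higher in members of both libraries, and 30 (1.45%) were at least 2-fold lower. The rule for genes compared asked for at least 10 UMIs, or 10 expected UMIs, in members of each library, and 2-fold was read after adding 1 UMI; ratios printed here are without it. Among the 15 genes with the highest ratios in both libraries were ion channels and their partners. Dpp10 was 5474 CPM in WT members and 855 CPM in other WT smooth muscle nuclei, a ratio of 6.40 (5.95 to 6.88). Its RNA was seen in 57 of 60 WT members, with a median of 4842 CPM and a highest value of 16969 CPM, whereas 721 of 1055 other nuclei had none. In KO, Dpp10 was 1178 CPM in members and 45.7 CPM in the others, a ratio of 25.8 (19.3 to 34.6), but 7 of 13 members had none and 1 nucleus held 49 of the 97 UMIs. Ano1 was 6.23-fold higher in WT (5.27 to 7.34) and 4.88-fold in KO (3.71 to 6.34). Slc4a4, a sodium bicarbonate cotransporter, was 646 against 87.5 CPM in WT and 461 against 111 CPM in KO. Fam155a, an auxiliary subunit of the NALCN sodium leak channel, was 2347 against 607 CPM in WT and 206 against 40.0 CPM in KO.

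Several of the 15 encode proteins of the cell surface or its surroundings, although of 32 fixed genes of axon guidance and adhesion, 17 of them compared, Nlgn1 alone was 2-fold higher in both libraries. Mdga2 was 15.8-fold higher in WT members (2580.4 against 163 CPM, interval 13.9 to 18.0) and 11.2-fold in KO (1142 against 102 CPM, 8.70 to 14.4). Its median per nucleus was 2071 CPM in WT and 840.3 CPM in KO members, and 0 in the other nuclei of both libraries. Nlgn1, the postsynaptic adhesion protein neuroligin 1, was 8.84-fold higher in WT (2063 against 233 CPM) and 3.41-fold in KO, where 50 of 65 UMIs came from 1 nucleus. Col23a1, a transmembrane collagen, was 726 against 108 CPM in WT and 255 against 33.8 CPM in KO. Tspan12, a tetraspanin of Norrin and Frizzled signalling, was 139 against 41.7 CPM and 231 against 25.2 CPM. Adamts19, a secreted metalloproteinase, was 522 against 141 CPM and 972 against 233 CPM.

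Other higher genes were enzymes, a transporter, a receptor and the chromatin organiser Satb1. Ak5, an adenylate kinase, had the highest ratio in WT, 28.8 (482 against 16.7 CPM), and was 7.58-fold higher in KO (461 against 60.9 CPM). Slc2a13, a proton-coupled myo-inositol transporter, was 10.1-fold higher in WT (308 against 30.5 CPM) and 8.70-fold in KO. Olfr78, an olfactory-type receptor known from oxygen-sensing and vascular cells, was 64.6 against 4.09 CPM in WT, and 18 of its 19 KO UMIs came from 1 nucleus, with none left once nuclei with RNA of other types were left out. Satb1 was 1094 against 172 CPM in WT and 486 against 110.4 CPM in KO. The long non-coding RNA 1700018A04Rik was higher as well, at 333 against 75.2 CPM and 194 against 28.5 CPM. In KO, 6 of these 15 genes had at least 50% of their UMIs in 1 nucleus; in WT none did.

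**Figure D3:**
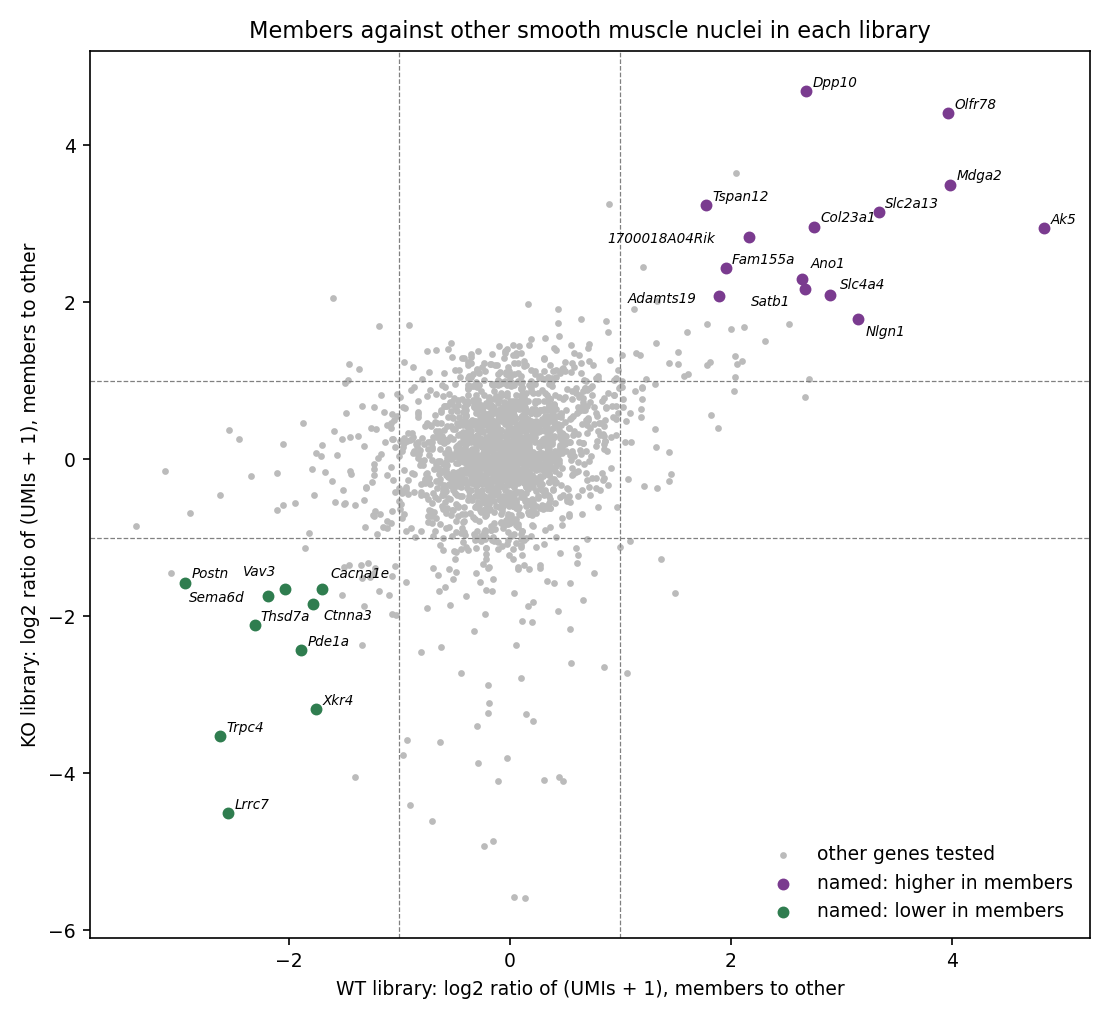
Log2 ratio of members to other smooth muscle nuclei, computed with 1 UMI added, in the WT library (x axis) and the KO library (y axis) for the 2069 genes compared; dashed lines mark 2-fold. The coloured genes were picked for lying farthest into the upper right and lower left corners, where 42 and 30 genes lie beyond 2-fold in both libraries.

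Bmpr1b, the fifth gene of the label, was 313 CPM in WT members and 26.1 CPM in the others, 12-fold higher (8.42 to 17.1), with RNA in 25.0% of members against 3.32%. In KO it rested on 7 UMIs, at 85.0 against 29.0 CPM (ratio 2.93, 1.13 to 6.41), too few to enter the genes compared. For the genes that chose the members, levels in members and others were 1531 and 10.4 CPM (Hs3st4), 239 and 1.86 CPM (Grin3a) and 144 and 6.70 CPM (Trhde) in WT. In KO they were 437 and 2.85 CPM, 328 and 0.951 CPM, and 12.1 and 4.28 CPM.

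Among the 10 genes with the lowest ratios in both libraries were channels, guidance and matrix genes of the other smooth muscle nuclei. Trpc4, a cation channel, had 1 UMI in WT members (4.97 against 60.7 CPM, ratio 0.082, 0.00206 to 0.463), and 0 in KO members, where the others had 139 CPM. By counting error of UMIs alone, a count of 0 allows up to 36.4 CPM in KO members, so Trpc4 was at least 3.81-fold lower there. This limit leaves out the spread between nuclei. Lrrc7, a scaffold protein of synapses, was 14.9 against 116 CPM in WT (3 UMIs, ratio 0.128, 0.0263 to 0.379) and, by the same limit, at least 7.56-fold lower in KO. Cacna1e, the pore subunit of R-type calcium channels, was 472 against 1549 CPM in WT and 206 against 685 CPM in KO. Ctnna3, an alpha-catenin of cell junctions, was 597 against 2066 CPM and 304 against 1127 CPM, and Pde1a, a calcium-dependent cyclic nucleotide phosphodiesterase, was 99.4 against 385 CPM and 85.0 against 521 CPM. Postn, the matrix protein periostin, was 69.6 against 568 CPM in WT and 838 against 2519.7 CPM in KO. Thsd7a, Xkr4, Sema6d and Vav3 were likewise lower, with WT ratios from 0.176 (Sema6d) to 0.271 (Xkr4) and KO ratios from 0.0549 (Xkr4) to 0.266 (Vav3).

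The gene families of the markers gave few other differences, measured against the 2.03% and 1.45% of all genes compared and median ratios of 0.967 in WT and 1.06 in KO. Of 18 ionotropic glutamate receptor genes, 2 had enough UMIs, none was 2-fold higher, and Gria3 was lower (74.6 against 228 CPM in WT, 97.2 against 362 CPM in KO). Grin1, the subunit that NMDA receptors need, was at 0 in members of both libraries, as were Grin2a, Grin2b, Grin2c, Grin2d and Grin3b. A count of 0 allowed up to 14.9 CPM in WT members. Of 24 heparan sulfate enzymes, 4 were compared and 1 was higher: Hs6st3, a 6-O-sulfotransferase, at 124 against 51.0 CPM and 304 against 77.5 CPM. Thyrotropin-releasing hormone and its receptors (Trh, Trhr, Trhr2) were at 0 in members, and neither of the 2 compared genes of that list of 9 passed 2-fold.

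The Kv4 channel complex held 2 higher genes among 4 compared of 9. These were Dpp10 and the pore subunit Kcnd3, which was 1775 against 446 CPM in WT and 1312 against 419 CPM in KO, with RNA in 88.3% and 92.3% of members. Kcnip1, a calcium-sensing Kv4 partner, was 1392 against 541 CPM in WT but 146 against 379.6 CPM in KO. Of 18 other potassium channel genes, 4 were compared and Kcnma1, the large-conductance calcium-activated channel, was higher at 6811 against 2901 CPM and 4639 against 2286 CPM. In the BMP pathway (28 genes, 8 compared), 2 genes were higher, among them Bmper, an extracellular BMP regulator, at 313 against 48.4 CPM and 522 against 262 CPM. None of the BMP genes compared was 2-fold lower.

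Receptors for transmitters moved in both directions (22 genes, 7 compared). The nitric oxide receptor subunits Gucy1a1 (209 against 74.1 CPM in WT, 121 against 57.1 CPM in KO) and Gucy1b1 (144 against 68.1 CPM, 146 against 41.4 CPM) were higher. Chrm2, the main muscarinic receptor of gut muscle by number, was 184 against 1579.8 CPM in WT and 291 against 831 CPM in KO, and the tachykinin receptor Tacr1 was 64.6 against 141 CPM and 48.6 against 240.2 CPM. Chrm3 was 278 against 993 CPM in WT and 255 against 514 CPM in KO, and missed 2-fold in KO by the ratio with 1 UMI added. Among 20 contractile genes (15 compared), 20 calcium handling genes (12) and 27 smooth muscle regulators (16), none passed 2-fold in both libraries. Of 21 extracellular matrix genes (16 compared), Col4a5 was higher (467 against 189 CPM, 583 against 212 CPM) and Postn and Col6a3 were lower. The members of each list named here were chosen for their UMIs or ratios, and the lists were written with earlier results of these data known.

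Much of the RNA of the label genes lay in the members and in Kit-positive nuclei. In WT, members held 2.40% of all UMIs of kept nuclei but 46.4% of Hs3st4, 45.3% of Grin3a, 20.1% of Dpp10, 18.5% of Trhde and 14.7% of Bmpr1b UMIs. Nuclei with any Kit UMI held 24.8% of all UMIs and 44.9%, 41.5%, 28.6%, 50.3% and 50.6% of these genes. Other WT smooth muscle nuclei held 42.0% of Dpp10. Because Hs3st4, Grin3a and Trhde chose the members, their shares in members and in the others are set in part by the rule in both libraries. In KO, members held 36.7% of Hs3st4 and 30.7% of Grin3a in 1.34% of all UMIs, and Dpp10 lay mostly in Kit nuclei (40.6%) and nuclei with neuronal UMIs (29.6%). In all, 96 WT and 27 KO nuclei passed the marker thresholds before type was considered; 31 of the 36 WT nuclei and 8 of the 14 KO nuclei turned away held Kit. Mdga2, Fam155a and Nlgn1 lay mostly in nuclei with at least 4 neuronal UMIs and no Kit, which held 58.2%, 64.2% and 57.2% of their WT UMIs and 72.1%, 82.9% and 65.9% of their KO UMIs. The rule holds neuronal UMIs low in members and in the other smooth muscle nuclei alike, and the part of neuronal RNA in these 3 genes was not tested. As a measure of free RNA, epithelial-marker nuclei (median 1445 UMIs) held Hs3st4 in 0 of 243 cases in WT, with an upper 95% limit of 1.51%, Grin3a in 0.823% and Dpp10 in 3.70%. Other WT smooth muscle nuclei, which the rule keeps low in Grin3a, held it in 0.474%, at or below that background. Of WT members, 95% held Dpp10.

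WT members lay near one another in expression space built without the rule and label genes. On average 52.8% of the 15 nearest neighbours of a WT member were members, against 5.38% of WT smooth muscle nuclei, although 7 of the 60 had none. After thinning, the values were 55.9% against 6.31%. KO members had 13.8% against 2.36%, and after thinning 5.13% against 2.74%. By open chromatin the values were 4.80% against 5.01% in WT and 3.03% against 2.44% in KO, where 7 of 11 members had no member among their neighbours.

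Open chromatin at the marker genes was too sparse to compare. In WT, regions at Grin3a (chr4:49661611-49845744), Hs3st4 (chr7:123982869-124398989) and Trhde (chr10:114398823-114802307) held 2, 2 and 6 counts in members and 9, 21 and 53 in the others. Bmpr1b (chr3:141837136-142169425) had 4 and 52 counts, and Dpp10 (chr1:123321471-124045559) had no listed region in WT. Positions are those of GRCm38. Of 23 regions matched between the libraries with at least 10 counts in members of each, 6 (26.1%) were at least 2-fold higher in members, the first by the smaller of its 2 ratios being chr12:21417139-21418032 near Ywhaq with 16 member and 92 other counts in WT and 11 and 54 in KO. The minimum was set on member counts alone, so regions low in members could hardly enter. The 26.1% is therefore set in part by that minimum and is not comparable with the share of genes. None of 7 regions passed with at least 20 counts, and none of 8 after nuclei in the top 10% of doublet scores were left out.

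Promoters were searched for motifs of smooth muscle and interstitial factors in windows of 250 bases before to 50 after the start (RefSeq, GRCm38.p6). Of the 19 label and higher genes, 13 had a promoter in the table. The E-box CAGCTG was found in 4 of them (30.8%; Ano1, Bmpr1b, Satb1 and Trhde) and in 18.3% of all 27025 genes, and in 5 of 9 promoters of the lower genes. The CArG box, the AP-1 motif TGANTCA and the GATA motif AGATAA were found in none of the 13, against 1.81%, 8.97% and 12.7% of all genes, and the TEAD motif GGAATG in Tspan12, against 16.6%. Both strands were searched, and none of these motifs contains another. The 250 bases before the start are shown for Trhde, the rule gene whose promoter touched an open region in WT (2 member and 18 other counts), and for Slc2a13, whose promoter did so in both libraries (2 and 35 counts in WT, 3 and 34 in KO). Capitals mark the E-box, at base 131 of the Trhde sequence; both are on the minus strand, at chr10:114802303-114802552 and chr15:91573262-91573511.
Trhde: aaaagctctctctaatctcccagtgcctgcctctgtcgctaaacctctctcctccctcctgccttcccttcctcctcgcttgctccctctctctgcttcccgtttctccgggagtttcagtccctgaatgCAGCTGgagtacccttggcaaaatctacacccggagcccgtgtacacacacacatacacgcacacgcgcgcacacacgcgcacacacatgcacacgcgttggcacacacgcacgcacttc
Slc2a13: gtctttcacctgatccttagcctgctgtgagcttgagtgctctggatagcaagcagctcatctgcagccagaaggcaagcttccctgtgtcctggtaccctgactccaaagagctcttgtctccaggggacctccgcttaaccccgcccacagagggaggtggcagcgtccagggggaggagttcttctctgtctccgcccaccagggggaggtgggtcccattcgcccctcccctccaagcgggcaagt

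Between the libraries, KO members had less Dpp10, Hs3st4 and Bmpr1b than WT members. Dpp10 was 0.215 times its WT level in KO members (0.173 to 0.265) and 0.0534 times in the other smooth muscle nuclei (0.0431 to 0.0655). Hs3st4 was 0.286 times its WT level in members and 0.274 times in the others, Bmpr1b 0.271 times (0.105 to 0.593) and 1.11 times, and Ano1 0.780 times (0.585 to 1.03) and 0.996 times. The Ano1 ratio in members turned to 1.42 at a marker threshold of 3 and was 0.343 without nuclei holding RNA of other types. Grin3a was 1.37 times (0.824 to 2.25) its WT level in members, and Trhde, with 1 KO UMI, was 0.0842 times (0.00206 to 0.508). Hs3st4, Grin3a and Trhde chose the members in each library, so these 3 ratios are also set by the rule. Over 2791 genes with at least 20 UMIs in members, 302 (10.8%) were at least 2-fold higher and 299 (10.7%) at least 2-fold lower in KO members. In the other smooth muscle nuclei, with far more UMIs, 94 (3.37%) and 84 (3.01%) of the same genes were.

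Among the 8 genes highest in KO against WT members, Itga5, the fibronectin receptor subunit, was 79.6 CPM in WT and 1712 CPM in KO members, 21.5-fold (12.8 to 38.7), and was seen in 16.7% of WT and 92.3% of KO members. In other smooth muscle nuclei it was 2.69-fold higher in KO, from 492 to 1323 CPM. Crispld2, a secreted glycoprotein, was seen in 5.0% of WT and 84.6% of KO members and was 21.2-fold higher (6.49 to 109, on 3 WT UMIs), against 5.37-fold in the others. Ccn2, a matricellular growth factor, was 24.4-fold higher in members (5.93 to 216, on 2 WT UMIs) and 4.94-fold in the others, and Eln, elastin, 13.1-fold (6.10 to 32.3) and 12.9-fold, with 24 of 43 KO UMIs in 1 nucleus. Eln had no UMI in the KO members that held at least 3 marker UMIs. Igf1, a growth factor, was 15.5-fold higher in members (4.55 to 81.6, on 3 WT UMIs) and 7.59-fold in the others, with 12 of its 19 KO UMIs in 1 nucleus and none in KO members left after nuclei with RNA of other types were left out. Slpi, Alkal1 and Gpx3 had 34 of 37, 32 of 48 and 22 of 25 KO UMIs in 1 nucleus. Over the matrix list, 10 of 16 genes were at least 2-fold higher and 1 lower in KO members (median ratio 2.74, against 2.23 in other smooth muscle nuclei and 1.01 over all genes). The fibroblast-like list (10 genes) moved with it, at 438 CPM in WT and 2186 CPM in KO members and at 872 and 2660.1 CPM in the others, with Pdgfra (by the rule) and Pi16 at 0 in all members. At least 5 of its UMIs were found in 7 of 60 WT and 6 of 13 KO members, and its part in the result was not tested. Contractile genes had 6 of 19 higher and none lower in KO members, with a median of 1.47 against 0.795 in the other nuclei. The 19 include contractile genes that the rule used, so this count and median are set in part by the choice of members.

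Among the genes lowest in KO members, Pdzrn4, a PDZ and RING finger protein, was 2536 CPM in WT and 97.2 CPM in KO members, 0.0383 times (0.0165 to 0.0761), and 0.106 times in the others. Its RNA was found in 90.0% of WT and 23.1% of KO members. The other 7 had no UMI in KO members. The fold limits given for them cover counting error of UMIs only and leave out the spread between nuclei. Grik2, a kainate receptor subunit, had 141 UMIs in WT members and was at least 19.2-fold lower in KO, against 0.840 times in the others. Cdh19, a cadherin of glia on the glial list, was at least 13.4-fold lower, with 35 of its 98 WT UMIs in 1 nucleus, while the others had 1.30 times the WT level. By counting error alone, Slc35f1, Sox2ot, Chl1, Epha6 and Adgrl3 were at least 9.69-, 8.73-, 7.51-, 9.42- and 6.55-fold lower. Each of these 5 genes was found in 10.0% to 18.3% of WT members, and Epha6 and Adgrl3 had 41 of 69 and 29 of 48 UMIs in 1 nucleus. With so few nuclei holding them, these limits are not lower bounds on a difference between the groups of nuclei. The summed glial list, 771 CPM in WT and 170.0 CPM in KO members, moved with this group, and its part in the result was not tested.

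**Figure D4:**
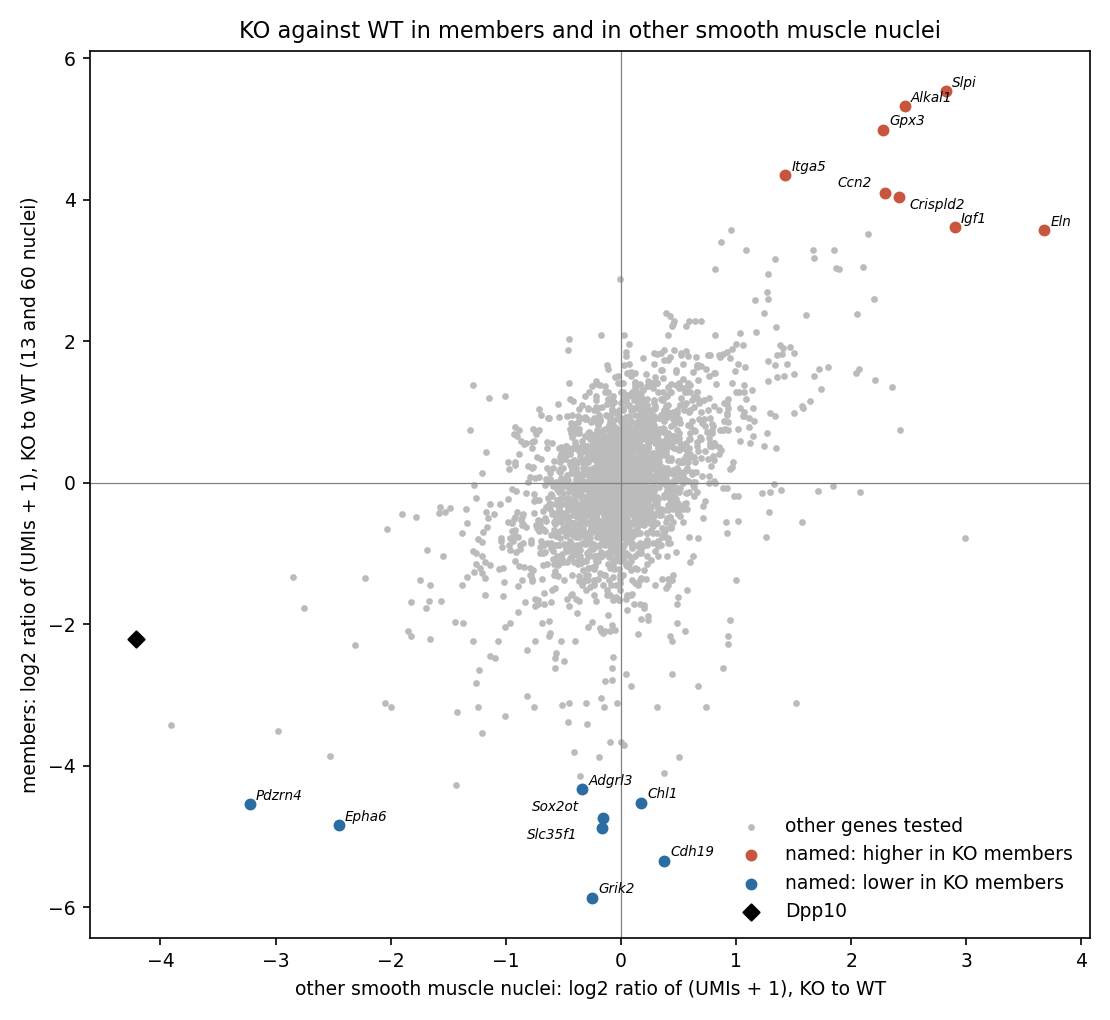
Log2 ratio of KO to WT, computed with 1 UMI added, in the other smooth muscle nuclei (x axis) and in members (y axis) for the 2791 genes compared. Dpp10 lies left and below 0 on both axes (0.0534 and 0.215 times), and the 8 genes named as highest in KO members lie above 0 in both.

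The bulk libraries, which played no part in choosing the nuclei, allowed the label genes to be tested with replicates. In whole muscularis fewer cells of a type and less RNA per cell cannot be told apart. Dpp10 was 35.1, 36.7 and 40.9 CPM in WT colon and 8.47, 3.37 and 6.76 CPM in the colon libraries labelled KO. The groups did not overlap, and the log2 fold change was -2.60 ± 0.50 (SE, n = 3 against 3). It did not pass the threshold of 0.05 in edgeR's quasi-likelihood test (Benjamini-Hochberg adjusted p = 0.0607), but did in DESeq2 (adjusted p = 3.68e-05). Over 15 alternatives the adjusted p ran from 3.68e-05 to 0.193 and was below 0.05 in 3, among them the fit without KO jejunum m1 (0.0136). In jejunum Dpp10 was 9.69, 7.20 and 15.7 CPM in WT and 4.06, 1.02 and 1.49 CPM in the libraries labelled KO. There too the groups did not overlap (log2 fold change -2.34 ± 0.51, edgeR adjusted p = 0.0956, DESeq2 adjusted p = 0.0005, range over 15 alternatives 0.0005 to 0.292). The changes of the tissues did not differ detectably (difference -0.26 ± 0.69, edgeR adjusted p = 0.969).

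The other label genes gave no call between genotypes. Grin3a was 13.3, 9.54 and 12.4 CPM in WT colon and 15.2, 4.96 and 8.26 CPM in the colon libraries labelled KO, with overlapping groups (log2 fold change -0.31 ± 0.41, edgeR adjusted p = 0.794). Hs3st4 was 5.19, 2.97 and 1.25 CPM in WT colon and 5.84, 7.22 and 0.430 CPM in KO (0.51 ± 1.03, edgeR adjusted p = 0.881). In jejunum a single library labelled KO, m1, held 33.4 CPM of Hs3st4 while the other two held 3.27 and 3.51 CPM, and the log2 fold change of 1.32 turned to -0.68 without it. Trhde was 4.42, 3.79 and 4.41 CPM in WT colon against 3.84, 1.46 and 4.61 CPM (-0.35 ± 0.44, edgeR adjusted p = 0.783). Bmpr1b was 3.55, 4.67 and 3.55 CPM against 3.67, 3.47 and 2.38 CPM (-0.31 ± 0.31, edgeR adjusted p = 0.707). Over all 20886 genes tested, 24 (0.115%) were called higher and 57 (0.273%) lower in colon, and 26 (0.124%) and 19 (0.091%) in jejunum. None of the 15 higher genes of the members was called in either tissue by edgeR. An unadjusted edgeR p below 0.05 was found for 3 of them in colon and for 6 in jejunum. The share of all genes at that level is not given here, so these counts have no baseline. The log2 fold changes of the 15 genes had medians of -0.45 (colon) and -0.44 (jejunum), beside 0 and 0.02 for all genes tested.

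**Figure D5:**
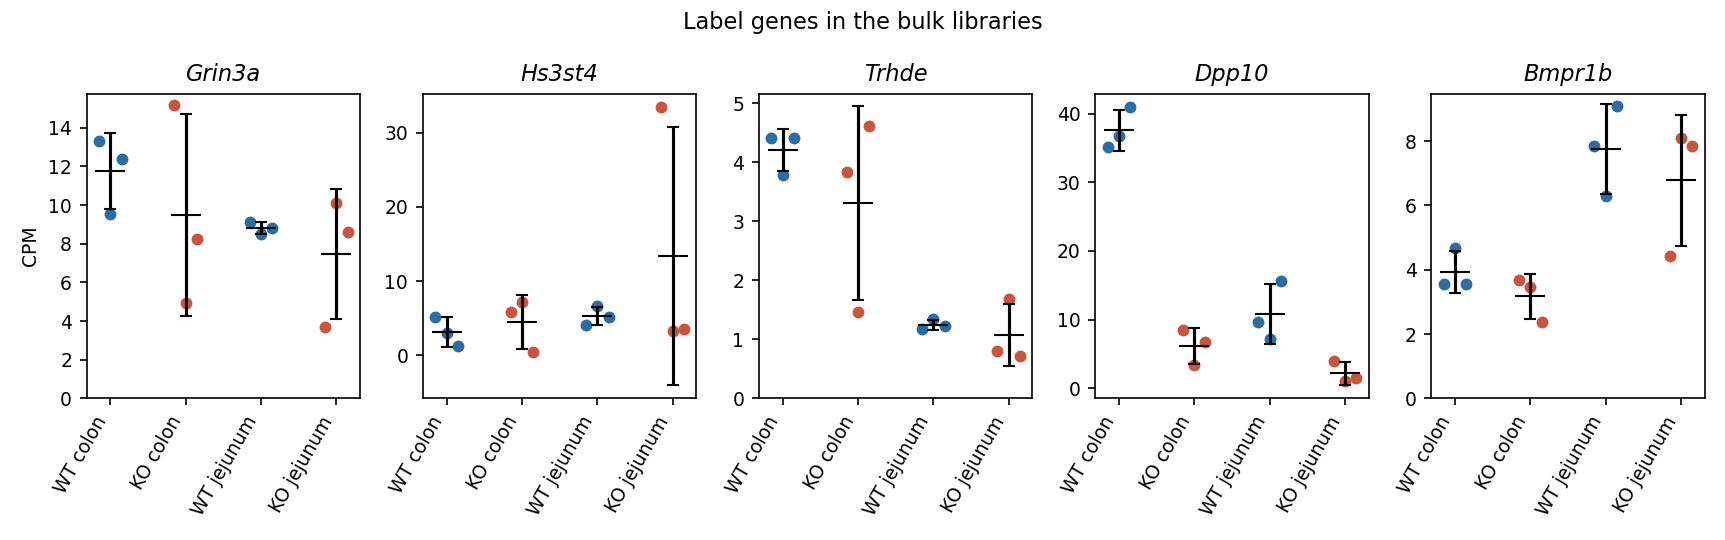
Level in CPM of the 5 label genes in each bulk library (points), with the mean and SD of 3 libraries per group; each panel has its own scale. Dpp10 is lower in every library labelled KO than in every WT library of the same tissue, and KO jejunum m1 stands apart for Hs3st4 at 33.4 CPM.

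Between the WT tissues, Dpp10, Trhde and Grin3a were higher in colon than in jejunum, and Bmpr1b lower, in every library. None of these passed the threshold, and the share of all genes whose groups separate in this way is not given here. Grin3a, at 9.13, 8.51 and 8.82 CPM in WT jejunum, differed by 0.42 ± 0.41 (colon minus jejunum, edgeR adjusted p = 0.768). Trhde was 1.18, 1.34 and 1.23 CPM in WT jejunum (colon minus jejunum 1.75 ± 0.45, edgeR adjusted p = 0.0935). Dpp10 differed by 1.79 ± 0.49 (edgeR adjusted p = 0.110), and Bmpr1b, at 7.85, 6.29 and 9.08 CPM in WT jejunum, by -0.98 ± 0.31 (edgeR adjusted p = 0.167). DESeq2 gave adjusted p values of 0.00619, 0.0106 and 0.0378 for Trhde, Dpp10 and Bmpr1b. With 145 genes (0.694%) called higher and 180 (0.862%) lower in WT colon, 2 of the 15 higher genes of the members were called. Adamts19 was higher in colon by 2.89 ± 0.43 (edgeR adjusted p = 0.00909) and Tspan12 lower by -1.63 ± 0.23 (edgeR adjusted p = 0.00767). Of the 10 genes lower in members, Thsd7a (2.46 ± 0.27, edgeR adjusted p = 0.00225) and Vav3 (2.51, edgeR adjusted p = 0.00947) were called higher in colon and Sema6d lower (-1.0, edgeR adjusted p = 0.041). Of the 8 highest and 8 lowest genes named between KO and WT members, as far as tested in bulk, Crispld2 alone passed in colon. It was 320, 553 and 471 CPM in the libraries labelled KO against 102, 108 and 128 CPM in WT (1.99 ± 0.37, edgeR adjusted p = 0.0462). Pdzrn4 alone passed in jejunum, at 2.49, 3.74 and 4.07 CPM in the libraries labelled KO against 12.2, 13.6 and 13.5 CPM in WT (-1.93 ± 0.32, edgeR adjusted p = 0.0419). In colon the change of Pdzrn4 was -1.55 ± 0.32 (edgeR adjusted p = 0.0703), with groups that did not overlap. The remaining named genes tested in bulk passed in neither tissue.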

How the data were processed

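RNA and open chromatin of colon nuclei (1 WT and 1 KO library) and bulk RNA of colon and jejunum muscularis (3 libraries per group) were used. The authors deposited counts per gene and region for each barcode, made with Cell Ranger per the submitters' processing notes and cellranger-arc per the file headers, and bulk counts per gene, for which those notes name STAR 2.0.4b, featureCounts 1.4.5 and the builds GRCm38 and mm10. Every gene value in the nuclei files was even, while regions held odd values, so gene values were halved and taken as UMIs; this is an inference from the values. The unmapped per-sample columns numbered 0.

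The rule was applied in Python 3.11.15 (scanpy 1.11.5, scipy 1.17.1). UMIs were summed over members and over other smooth muscle nuclei, scaled to CPM and given with exact Poisson intervals, and ratios with exact conditional binomial intervals. Scrublet marked 0 nuclei, so doublets were kept, and leaving out the top 10% of scores was an alternative. Bulk counts (20886 genes tested) were fitted over all 12 libraries with edgeR 4.0.16's quasi-likelihood test (R 4.3.3) and Benjamini-Hochberg adjustment at 0.05, with DESeq2 1.42.0 as an alternative; bulk depth was 24254905 to 44315104 counts. Exact permutation of 3 against 3 libraries cannot go below 0.1. Scripts were tested on simulated data.

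Named genes were the label markers, the 15 highest and 10 lowest ratios shared by both libraries, the 8 highest and 8 lowest KO to WT ratios with at least 20 UMIs, and 2 to 4 genes per list. Some items that these rules cover are not reported here. The members, label markers and lists were chosen with earlier results of these data known. The Kit-positive comparison nuclei, the motifs, the doublet scores, the exclusion of nuclei with RNA of other types and the exclusion of the deepest member were added after values were seen.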

Additional observations from a re-analysis of the deposited data

Results flagged for a closer look

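Cdh19 and Chl1 had opposite directions between KO and WT in members and in other smooth muscle nuclei. The KO to WT ratio of Cdh19 was 0 in members, from 98 UMIs in WT and none in KO, and 1.30 in the others. The ratio of Chl1, a cell adhesion molecule of neurons and glia, was 0 in members, from 55 UMIs in WT, and 1.13 in the others. With 1 library per genotype the difference was not tested, and 35 of the 98 Cdh19 UMIs came from 1 nucleus.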

How the results depend on the processing

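Thinning every nucleus to 1000 UMIs lowered the member share to 3.76% in WT and 0.709% in KO, and a marker threshold of 3 UMIs lowered the KO share to 0.907%. Thinning left 8 higher and 4 lower genes against other smooth muscle nuclei and 79 higher and 85 lower genes between KO and WT members, with fewer genes reaching the UMI minimum. The Dpp10 ratio stayed above 1 throughout: in WT it was 7.0 as a mean over nuclei, 7.19 thinned and 7.01 without the top doublet scores, and in KO 15.3 as a mean over nuclei, 10.6 thinned, 41.6 at a threshold of 3 and 11.7 without nuclei holding RNA of other types. Leaving out those nuclei gave Bmpr1b ratios of 20.4 in WT and 15.6 in KO, an Olfr78 ratio of 0 in KO and an Igf1 KO to WT ratio of 0. At a threshold of 3 the KO to WT ratio in members was 0 for Eln and 1.42 for Ano1. The count of higher open regions was 0 with a minimum of 20 counts and 0 without the top doublet scores. The causes were not tested.

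In bulk, DESeq2 called 856 genes in colon, 726 in jejunum and 1077 between the WT tissues, where edgeR called 81, 45 and 325. Leaving out 1 library at a time gave 7 (without KO colon t6) to 180 (without KO colon m1) calls in colon. The range was 2 (without KO jejunum t4) to 172 (without KO colon t4) in jejunum and 79 (without WT colon t1) to 557 (without KO jejunum m1) between tissues. The log2 fold change ranged from -0.64 to 0.01 for Trhde in colon, and in jejunum from -0.52 to 0.06 for Grin3a, -0.68 to 1.77 for Hs3st4 and -0.35 to 0.01 for Bmpr1b. A replicate block over the 6 WT libraries gave 631 tissue calls, with adjusted p = 0.0473 for Trhde and 0.017 for Dpp10 in edgeR. Correlations of same-numbered WT libraries were 0.1, -0.00797 and 0.0609, so the numbers were not taken as pairs.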

Other observations

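Of the 42 genes at least 2-fold higher in members of both libraries, several that no list held encode secreted growth factors and signalling proteins. Pdgfd, a platelet-derived growth factor, was 1193 CPM in WT members and 402 CPM in other WT smooth muscle nuclei, and 814 against 395 CPM in KO. Vegfc, a growth factor of lymphatic vessels, was 428 against 123 CPM in WT and 146 against 66.1 CPM in KO, and Angpt1, a ligand of the Tie2 receptor, 482 against 159.7 CPM and 182 against 62.8 CPM. Enpp2, the secreted enzyme that makes lysophosphatidic acid, was 154 against 68.8 CPM and 291 against 55.2 CPM. Ror1, a receptor of Wnt ligands, was 721 against 329 CPM and 668 against 265 CPM. Slc24a3, a potassium-dependent sodium-calcium exchanger, was 4554 against 1586 CPM and 4044 against 1581 CPM, and Hdac9, a class IIa histone deacetylase, 4345 against 1058 CPM and 1749 against 706 CPM. These genes were chosen after their values were seen.

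Among the 30 lower genes, Sdk1, an adhesion protein of synapses, was 860.1 against 2189 CPM in WT and 328 against 965 CPM in KO. Ptprz1, a receptor phosphatase, was 229 against 531 CPM and 243 against 811 CPM. Csrp1, a LIM protein of smooth muscle, was 159 against 399 CPM and 134 against 362 CPM, and Eda, the ligand ectodysplasin, 194 against 501 CPM and 36.4 against 249 CPM. These too were chosen after their values were seen.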
